A study of Mus musculus with 12 samples.

Results

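Etv4 knockout clone 1 was compared with control cells of the mouse mammary carcinoma line 4T1 grown on plastic (2D). The comparison rests on 4 of the 12 libraries of the series, 2 of clone 1 and 2 of control. All genes with enough counts over the 12 libraries were included, 13763 of the 31017 genes in the deposited tables. Some of these, such as Vil1 and Fer1l5, had no counts in the 4 libraries and could not be called. They lower the shares called over all genes. Clone 1 is a single clone selected after nucleofection with Cas9 and sgRNA against Etv4, and the control is pools of clones nucleofected with control sgRNA, both in DMEM/F12 with serum. A second clone (clone 2) and collagen I gels (3D) supply the other libraries. A single clone was set against pools, so the effect of the targeted gene and the other ways in which this clone departs from the pools cannot be told apart. The labels do not say whether the 2 libraries of a group are separate cultures, so the p-values reflect only library-to-library spread, which may be technical.

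The product of Etv4 is a PEA3 transcription factor, from a branch of the ETS family that binds DNA at a GGAA core. PEA3 factors are switched on by receptor tyrosine kinases through ERK signalling, and in mammary carcinoma they are known for driving invasion and matrix protease genes. 4T1 is an epithelial tumour line that spreads from the mammary gland to lung, liver and bone.

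The clone 1 libraries held 14.4 and 12.3 M counts, and the control libraries 13.9 and 14.4 M. Over the 6 libraries grown in 2D, the first principal component of 9761 genes of over 5 counts per M (CPM) held 59.2% of the variance and set both clone 1 libraries apart from the others. The epithelial markers Krt8, Krt18, Epcam and Cdh1 summed to 2697 and 2636 CPM in clone 1 and to 3388 and 3375 CPM in control. Leukocyte markers summed to 1.66 and 3.91 CPM in clone 1 and 4.11 and 5.56 CPM in control, with Adgre1, Itgam and Spi1 at 0 counts. Fibroblast markers summed to 6.03 and 7.33 CPM against 4.04 and 3.89 CPM in control, nearly all of it Pdgfra, with Pdgfrb, Dcn, Lum and Thy1 at 0. Endothelial markers summed to 9.02 and 10.3 CPM in clone 1 and 15.4 and 12.8 CPM in control, nearly all of it Egfl7, with Kdr and Tek at 0.

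Genes higher and lower in clone 1 were about equally many, but large falls outnumbered large rises. At an adjusted p under 0.05, from edgeR's quasi-likelihood test with Benjamini-Hochberg adjustment as for every gene given here, 2706 genes were higher (19.7% of those tested) and 2742 lower (19.9%), together 39.6%. Of these, 302 were higher (2.19%) and 623 lower (4.53%) by at least 2-fold. The median log2 change over all genes was 0 and the median absolute change was 0.278. Genes with no counts in the 4 libraries entered both medians at 0. Counts of gene lists below stand against 19.7% of all genes tested higher and 19.9% lower. Both clone 1 libraries lay above both control libraries in 29.7% of genes and below both in 30.2%. Only the libraries of these groups, fitted alone, gave 1979 higher and 2083 lower genes.

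**Figure D1:**
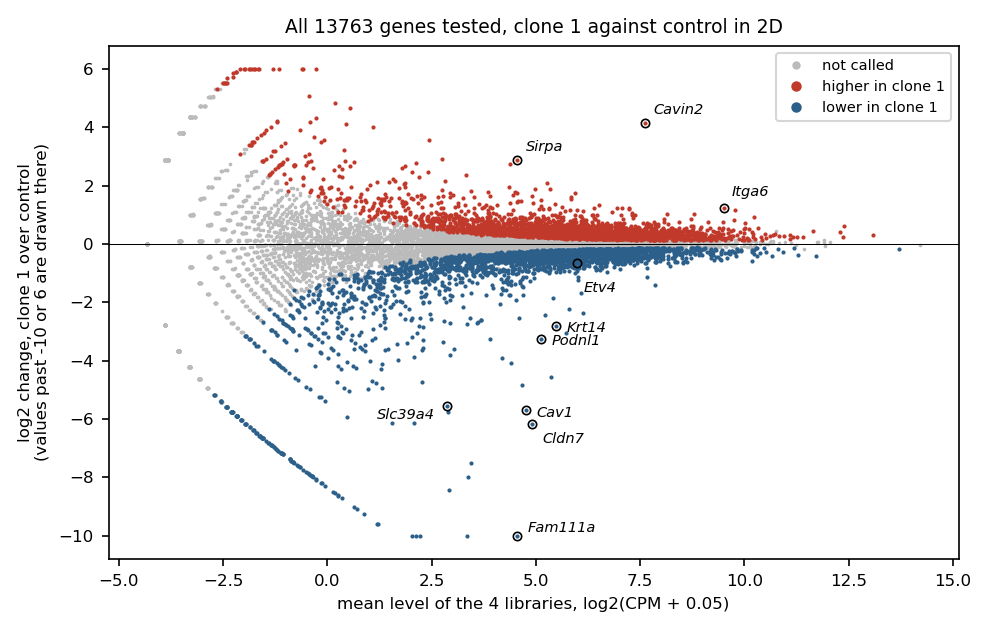
The log2 change of clone 1 over control is plotted against the mean level of the 4 libraries for every gene tested, with 2706 called genes higher in red, 2742 lower in blue and genes not called in grey. Cav1, Cldn7 and Fam111a lie far below the zero line at moderate levels, while Cavin2 lies above it at 4.15.

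The targeted gene was still transcribed in clone 1. Etv4 (chromosome 11) was at 49.8 and 49.2 CPM in clone 1, against 78.1 and 76.0 CPM in control, a log2 change of -0.64 ± 0.07 (SE), adjusted p = 3.4e-08, and -0.26 with chromosomes centred. Small insertions or deletions need not change the count of a whole gene, so this level checks the knockout little. Etv5, a second PEA3 factor, was also lower, at 27.5 and 27.3 CPM in clone 1, against 44.7 and 44.8 CPM in control (log2 change -0.71 ± 0.08, adjusted p = 1.7e-07, and -0.36 with chromosomes centred). Etv1, the remaining member, was higher, at 32.6 and 31.7 CPM in clone 1, against 23.7 and 21.3 CPM in control (log2 change 0.52 ± 0.09, adjusted p = 3.5e-05, and 0.33 with chromosomes centred). In none of the 3 did the clone 1 and control libraries overlap. Such separation is common here, with clone 1 above control in 29.7% of all genes tested and below it in 30.2%. Clone 1 and clone 2 did not differ detectably in Etv4 (clone 1 over clone 2 0.05 ± 0.07, adjusted p = 0.604) or in Etv1 (0.01 ± 0.08, adjusted p = 0.951), while Etv5 was lower in clone 1 than in clone 2 (-0.73 ± 0.08, adjusted p = 7.8e-08).

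Other ETS factors were more often lower than higher, with 1 higher and 6 lower of 13 tested. Of all genes tested, 19.7% were higher and 19.9% lower. Ets2, an ETS factor activated by ERK, was at 34.9 and 39.0 CPM in clone 1, against 59.4 and 69.4 CPM in control (log2 change -0.81, and -0.46 with chromosomes centred). Ets1 had a log2 change of -0.28 (-0.15 with chromosomes centred), and Elk3, a ternary complex factor, rose by 0.33. Gabpa, a subunit of GABP, had a log2 change of -0.35 that was lost with each chromosome centred on its own median, at 0.000179 (adjusted p = 1; 3.6e-06 to 1 across alternatives). Genes that ERK signalling induces, many of which feed back on it, moved both ways, with 5 higher and 8 lower of 18 tested and a median of -0.13. Dusp6, the cytosolic ERK phosphatase, was at 90.2 and 92.3 CPM in clone 1, against 139.9 and 139 CPM in control (log2 change -0.61 ± 0.06 (SE), adjusted p = 2.4e-09). The receptor Epha4 fell by 0.86 and Dusp4, the nuclear phosphatase, fell by 0.35 on the log2 scale, while Spry2, an inhibitor of receptor signalling, rose by 0.44 (0.25 with chromosomes centred). Among ERBB ligands and receptors 2 of 12 were called, both higher, a smaller share than the 39.6% called of all genes tested. Areg, the amphiregulin ligand of EGFR, was at 38.1 and 38.9 CPM in clone 1, against 20.9 and 19.1 CPM in control (log2 change 0.94 ± 0.09), and Nrg2, a neuregulin, was at 6.64 and 5.54 CPM in clone 1, against 2.59 and 1.62 CPM in control. The ERK list had 2 higher without clone 1 replicate 2, 3 higher without control replicate 1 and 5 lower without clone 1 replicate 1. Leaving out a library, the ERBB list had 2 lower without clone 1 replicate 2 and 1 lower without control replicate 1.

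The genes lower by the widest margin were nearly silent in clone 1. By rule, the 12 of at least 5 CPM with the largest falls were Fam111a, Bspry, Tmem266, Rasef, Zfp518b, Cldn7, Rab25, Cav1, Slc39a4, Adgrg3, Rps6ka6 and Ap1m2. Fam111a, a protease that acts at replication forks, had 0 counts over both clone 1 libraries and 1356 over both control libraries, at least 427-fold lower against a floor of 3 counts over the group. Bspry, an epithelial protein with B-box and SPRY domains, had 0 against 593 counts, at least 187-fold lower. In the other direction no gene passed the same rule of at most 3 counts in one group and at least 100 in the other, which 14 genes passed by loss in clone 1. Zfp979, a zinc finger gene, and Acsl6, an acyl-CoA synthetase, had 0 counts against 270 and 250 in control. Rasef, a Rab GTPase with EF hands, had 2 counts against 596, and Zfp518b, a zinc finger gene, had 3 against 631. These are control over clone 1 ratios of 282 (95% counting interval 77.6 to 2330.0) for Rasef and 199 (67.7 to 966) for Zfp518b. Tmem266, a membrane protein with a voltage sensor, had 1 count against 439, and the caspase gene Casp12 had 3 against 241. Such floors and intervals cover counting error only. In clone 2 in 2D, 13 of the 14 genes had 79 to 1416 counts. The exception, Otop1, a proton channel gene named after its values were seen, had 3 counts in clone 1, 2 in clone 2 and 108 in control. In 3D the 14 genes had 0 to 28 counts in clone 1 and 33 to 1550 in control, so clone 1 was also low in libraries that share none with the 2D comparison.

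Other genes with large falls kept some counts in clone 1. Rab25, a Rab11-family GTPase of apical recycling, was at 0.0699 and 0.482 CPM in clone 1, against 14.5 CPM in both control libraries (log2 change -5.76 ± 0.30 (SE), adjusted p = 2.6e-14). Ap1m2, the epithelial subunit of the AP-1B clathrin adaptor, was at 3.21 and 1.45 CPM in clone 1, against 45.4 and 34.8 CPM in control (log2 change -4.07 ± 0.19). Cldn7, a claudin of tight junctions and the lateral membrane, was at 0.839 and 0.803 CPM in clone 1, against 61.7 and 57.3 CPM in control (log2 change -6.17 ± 0.16 (SE), adjusted p = 5.0e-21). Clone 2 had all 3, at 22.8, 49.4 and 41.1 CPM on average, and clone 1 was below clone 2 in each (log2 differences -6.41, -4.37 and -5.63, each past the threshold). Adgrg3, an adhesion G protein-coupled receptor, was at 1.89 and 1.53 CPM in clone 1, against 51.2 and 46.5 CPM in control. Rps6ka6, a kinase of the RSK family that ERK activates, was at 3.56 and 3.05 CPM in clone 1, against 80.9 and 77.8 CPM in control. For Slc39a4, the zinc importer, the values were 0.349 and 0.241 CPM in clone 1, against 14.5 and 14.1 CPM in control, and clone 2 was low as well at 0.793 CPM.

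Promoters of 5 of the genes with the largest falls, with that of Cavin2, the gene of at least 5 CPM that rose most, are printed to show what lies at their starts. The windows run from 250 bases before to 50 after a RefSeq start (GRCm38.p6), nearest to the gene's 5' end where several are listed, 5' to 3' on the gene's strand. Capitals mark the ETS core context AGGAAG on either strand (CTTCCT on the strand printed). CCGGAAGT, a stronger ETS context, was searched on both strands too; one GGAA core cannot match both motifs.
Fam111a: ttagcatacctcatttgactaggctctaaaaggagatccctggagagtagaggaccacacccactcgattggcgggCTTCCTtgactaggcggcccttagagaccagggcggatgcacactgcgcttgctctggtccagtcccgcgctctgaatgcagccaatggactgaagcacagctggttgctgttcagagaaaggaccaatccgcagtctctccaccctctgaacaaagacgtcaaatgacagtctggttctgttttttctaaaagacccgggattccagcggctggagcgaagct
Bspry: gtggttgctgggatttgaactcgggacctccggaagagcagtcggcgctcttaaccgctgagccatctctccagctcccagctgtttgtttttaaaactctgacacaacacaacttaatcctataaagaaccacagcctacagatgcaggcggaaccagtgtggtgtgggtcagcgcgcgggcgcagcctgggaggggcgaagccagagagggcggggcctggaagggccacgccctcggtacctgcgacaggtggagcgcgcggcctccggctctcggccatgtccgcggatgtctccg
Rab25: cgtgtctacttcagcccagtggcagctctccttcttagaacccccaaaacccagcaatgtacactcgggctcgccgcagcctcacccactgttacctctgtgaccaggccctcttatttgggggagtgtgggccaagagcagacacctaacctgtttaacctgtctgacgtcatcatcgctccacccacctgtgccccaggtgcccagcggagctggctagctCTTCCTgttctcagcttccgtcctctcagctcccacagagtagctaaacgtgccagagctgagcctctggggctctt
Cldn7: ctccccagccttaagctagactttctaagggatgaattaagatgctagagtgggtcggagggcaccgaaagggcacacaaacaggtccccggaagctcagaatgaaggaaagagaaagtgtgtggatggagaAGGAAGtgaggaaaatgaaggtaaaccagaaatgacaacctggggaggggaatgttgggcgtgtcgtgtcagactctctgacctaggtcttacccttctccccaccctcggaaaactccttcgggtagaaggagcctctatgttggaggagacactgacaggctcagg
Cav1: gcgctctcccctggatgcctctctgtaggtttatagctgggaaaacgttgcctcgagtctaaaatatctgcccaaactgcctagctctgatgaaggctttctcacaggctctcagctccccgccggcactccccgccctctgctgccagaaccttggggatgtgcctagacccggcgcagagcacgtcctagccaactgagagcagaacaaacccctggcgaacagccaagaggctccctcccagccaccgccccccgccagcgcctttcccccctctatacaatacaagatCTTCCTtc
Cavin2: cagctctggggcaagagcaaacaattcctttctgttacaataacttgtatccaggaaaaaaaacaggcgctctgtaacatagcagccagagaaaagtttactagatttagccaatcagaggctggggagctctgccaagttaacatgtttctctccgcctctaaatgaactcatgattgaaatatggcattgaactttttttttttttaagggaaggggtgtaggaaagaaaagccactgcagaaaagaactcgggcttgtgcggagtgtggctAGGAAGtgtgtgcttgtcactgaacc
The windows are chr19:12573260-12573559 (plus strand), chr4:62479812-62480111 (plus strand), chr3:88548230-88548529 (minus strand), chr11:69964529-69964828 (plus strand), chr6:17306085-17306384 (plus strand) and chr1:51288876-51289175 (plus strand). AGGAAG occurred once in each of them but not in that of Bspry, and CCGGAAGT in none. Of all 32851 RefSeq promoter windows, 35.4% held AGGAAG and 3.89% held CCGGAAGT, so a match in 5 of 6 is only a description of these letters. CpG dinucleotides numbered 12, 23, 9, 7, 13 and 4 in the order printed. Promoters matched 10376 of the 13763 genes tested by symbol or synonym, under 80%, so shares in called genes are not reported here.

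Genes that rose in clone 1 did so by smaller steps. Cavin2, a coat protein of caveolae, rose most among genes of at least 5 CPM, at 387 and 362 CPM in clone 1, against 22.4 and 19.8 CPM in control (log2 change 4.15 ± 0.09 (SE), adjusted p = 1.1e-21). Sqor, a mitochondrial enzyme of sulfide oxidation, was at 10.8 and 8.84 CPM in clone 1, against 0.909 and 0.742 CPM in control (log2 change 3.57 ± 0.29), and Npr2, the receptor of C-type natriuretic peptide, was at 12.5 and 11.01 CPM in clone 1, against 0.839 and 2.29 CPM in control. Sirpa, the receptor of the CD47 signal, was at 41.8 and 40.8 CPM in clone 1, against 4.96 and 6.21 CPM in control (log2 change 2.88 ± 0.13). Pcsk6, a secreted proprotein convertase, was at 35.6 and 36.1 CPM in clone 1, against 5.38 and 5.40 CPM in control (log2 change 2.73 ± 0.14 (SE), adjusted p = 1.3e-14). In each of these the lowest clone 1 library lay above the highest control library, as the rule required. Btn1a1, a butyrophilin known from milk fat globules, Cobl, an actin nucleator, and Ror1, a receptor of WNT5A, rose by 2.48, 2.36 and 2.15 on the log2 scale. The secreted kallikrein Klk10 rose by 2.09, the sorting receptor Sorcs2 by 1.89 and the HLH inhibitor Id2 by 1.87. Anxa8, an annexin, varied more within clone 1, at 41.2 and 24.3 CPM in clone 1, against 7.76 and 9.11 CPM in control (log2 change 1.96 ± 0.18).

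**Figure D2:**
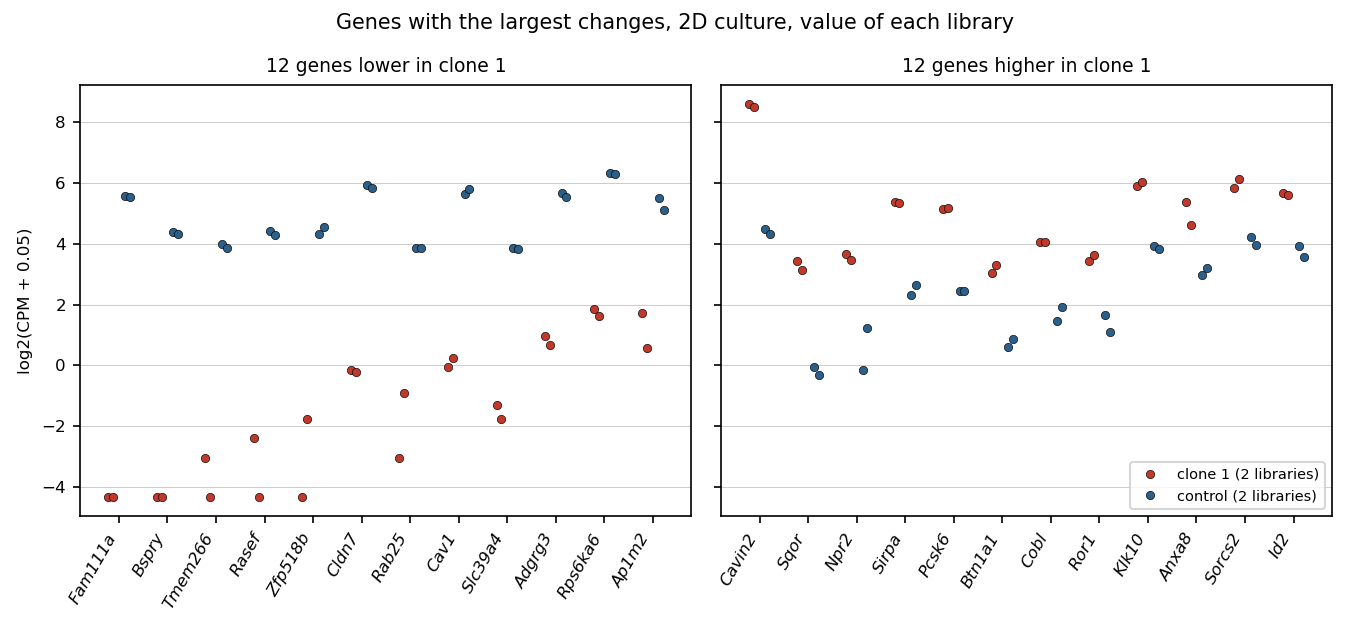
The level of each of the 4 libraries, log2(CPM + 0.05), is plotted for the 12 genes with the largest falls (left) and the 12 with the largest rises (right), clone 1 in red and control in blue. Fam111a and Bspry sit at the lowest possible value in both clone 1 libraries, and Cavin2 is the highest of the genes that rose.

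Caveolae, the flask-shaped pits of the plasma membrane, need caveolin 1 and the cavins. Cav1 was at 0.909 and 1.12 CPM in clone 1, against 49.98 and 56.0 CPM in control (log2 change -5.71 ± 0.16 (SE), adjusted p = 2.7e-20), and Cavin1, the cavin that builds the coat, was at 76.9 and 62.4 CPM in clone 1, against 139.9 and 135 CPM in control (log2 change -0.98 ± 0.07, and -0.60 with chromosomes centred). Cavin2 moved the other way, as given above, and so did Pacsin3, a membrane-bending partner, at 38.9 and 37.8 CPM in clone 1, against 20.9 and 19.5 CPM in control (log2 change 0.93 ± 0.10). The list of caveolae genes had 3 higher and 2 lower of 8 tested. Clone 2 had 52.9 and 50.4 CPM of Cav1 and 3.25 and 1.92 CPM of Cavin2. Clone 1 was below clone 2 in Cav1 (log2 difference -5.67 ± 0.16 (SE), adjusted p = 2.5e-20) and above it in Cavin2 (7.13 ± 0.13 (SE), adjusted p = 2.0e-24).

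Epithelial marker genes stayed abundant in clone 1, most of them at a lower level. Epcam, the epithelial adhesion molecule, was at 217 CPM in both clone 1 libraries, against 318 and 304 CPM in control (log2 change -0.52 ± 0.05), and the simple keratins Krt8 and Krt18 fell by 0.40 and 0.28 on the log2 scale. Cdh1 (E-cadherin) was at 298 and 295 CPM in clone 1, against 228 and 275 CPM in control, a log2 change of 0.24 ± 0.06 (adjusted p = 0.00317) that was lost without control replicate 1, at 0.11 (adjusted p = 0.169; 7.4e-06 to 0.169 across alternatives). Keratins split, with 3 higher and 3 lower of 9 tested. Krt14, the basal keratin, was at 9.99 and 12.4 CPM in clone 1, against 78.6 and 77.6 CPM in control (log2 change -2.81 ± 0.11 (SE), adjusted p = 1.7e-17), while Krt19 was at 96.4 and 91.1 CPM in clone 1, against 55.2 and 50.9 CPM in control (log2 change 0.82 ± 0.07). Cadherin, catenin and desmosome genes had 5 higher and 8 lower of 18 tested. Evpl, the cornified envelope and desmosome linker envoplakin, was at 0.699 and 0.723 CPM in clone 1, against 9.79 and 7.96 CPM in control. Dsc2, a desmosomal cadherin, was at 0.0699 and 0.241 CPM in clone 1, against 5.45 and 2.97 CPM in control. Ctnna1 (alpha-catenin) rose by 0.42 on the log2 scale. Tight junction genes had 2 higher and 3 lower of 15 tested, with Tjp3 at 0 and 0.0803 CPM in clone 1, against 2.24 and 1.08 CPM in control, Cldn3 lower by a log2 change of -0.70 and Marveld1 higher by 0.77. Regulators of epithelial-mesenchymal transition and mesenchymal genes had 3 higher and 2 lower of 15 tested. Among these the receptor kinase Axl was at 1187 and 1193 CPM in clone 1, against 817 and 868 CPM in control (log2 change 0.50 ± 0.05) and Vim (vimentin) at 1982 and 1993 CPM in clone 1, against 1612 and 1671 CPM in control (log2 change 0.28 ± 0.04, and 0.16 with chromosomes centred). S100a4 rose by 0.41, with another gene on the same strand covering 51.7% of its exon length, and the epithelial splicing regulator Esrp1 fell by 0.28. The mesenchymal list had 1 lower without control replicate 2.

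Genes of the extracellular matrix and its proteases moved in both directions. Matrix proteases and their inhibitors had 6 higher and 8 lower of 21 tested. Mmp3 (stromelysin 1) was at 11.04 and 12.5 CPM in clone 1, against 39.3 and 40.5 CPM in control (log2 change -1.76 ± 0.11 (SE), adjusted p = 6.9e-13). Serpinb2, the plasminogen activator inhibitor PAI-2, was listed with 0 counts in clone 1 against 234 in control, at least 73.7-fold lower. Mmp14, the membrane-bound collagenase, was higher, at 165 and 157 CPM in clone 1, against 102 and 91.6 CPM in control (log2 change 0.73 ± 0.06 (SE), adjusted p = 6.4e-10). Laminins and other basement membrane genes had 6 higher and 1 lower of 10 tested. Lamb2, the laminin beta 2 chain, was at 47.9 and 55.5 CPM in clone 1, against 35.1 and 32.3 CPM in control (log2 change 0.62 ± 0.08). Itga6, a laminin-binding integrin chain, was at 1022 and 1016 CPM in clone 1, against 411 and 459 CPM in control (log2 change 1.23 ± 0.05 (SE), adjusted p = 2.1e-16). Itga7 and Itgb6 fell by 1.20 and 1.28 and Itgav rose by 0.48 on the log2 scale. The integrin list had 4 higher and 5 lower of 14 tested. The laminin list had 0 lower without clone 1 replicate 1, 0 lower without clone 1 replicate 2 and 0 lower without control replicate 2.

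Collagen chains had 6 higher and 2 lower of 13 tested, and the 2 lower ones included Col4a5, a basement membrane chain, at 13.5 and 15.2 CPM in clone 1, against 34.5 and 34.7 CPM in control. Col5a1, a chain of fibrillar collagen V, was at 73.0 and 83.8 CPM in clone 1, against 35.5 and 33.9 CPM in control (log2 change 1.17 ± 0.09), and clone 2 had 5.15 and 6.12 CPM of it, so clone 1 stood above clone 2 by 3.81 ± 0.12 (SE), adjusted p = 9.9e-20. Col18a1, the source of endostatin, was at 338 and 330.2 CPM in clone 1, against 205 and 196 CPM in control. Col27a1, a low-level fibrillar chain, was at 4.26 and 3.62 CPM in clone 1, against 0.489 and 0 CPM in control. Matricellular genes had 8 higher and 5 lower of 19 tested. Podnl1, a small leucine-rich proteoglycan, was at 6.50 and 6.59 CPM in clone 1, against 65.3 and 60.2 CPM in control, with clone 2 at 7.05 and 5.26 CPM, and Lgals3bp, a secreted galectin ligand, was at 0.839 and 1.21 CPM in clone 1, against 14.6 and 13.6 CPM in control. Lgals1 (galectin 1), one of the most abundant transcripts called, was at 6599 and 6415 CPM in clone 1, against 4409 and 3992 CPM in control (log2 change 0.63 ± 0.05). The fibulin Fbln2 rose by 0.74 on the log2 scale. Sparc, a collagen-binding matricellular protein, was at 168 and 163 CPM in clone 1, against 105 and 102 CPM in control (log2 change 0.68 ± 0.06, and 1.06 with chromosomes centred), and clone 2 had 19.0 and 20.3 CPM.

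Immune and inflammatory genes were low in clone 1 across several lists. Genes of MHC class I presentation had 1 higher and 15 lower of 22 tested, with a median of -0.52, where 19.7% of all genes tested were higher and 19.9% lower. Nlrc5, the transactivator of that system, was at 3.49 and 3.78 CPM in clone 1, against 22.1 and 22.3 CPM in control (log2 change -2.61 ± 0.17 (SE), adjusted p = 1.8e-12), and Psmb8 and Psmb10, subunits of the immunoproteasome, fell by 2.62 and 0.98. H2-Q6, a nonclassical class I gene with near-identical neighbours that could share reads, was at 3.70 and 3.94 CPM in clone 1, against 11.4 and 10.99 CPM in control. Cd74, the class II invariant chain, had 0 counts in clone 1 against 93 in control. Interferon response genes had 2 higher and 18 lower of 45 tested, with a median of -0.61 (-0.54 with genes of 0 counts in a group set at their bound). Ifitm3, which blocks virus entry, was at 14.0 and 13.1 CPM in clone 1, against 41.7 and 32.9 CPM in control (log2 change -1.45 ± 0.13 (SE), adjusted p = 1.5e-09). Sp100, a nuclear body protein, was at 0.559 and 0.482 CPM in clone 1, against 5.73 CPM in both control libraries, and Ifi35 and Dtx3l fell by 1.14 and 1.00 on the log2 scale. Their log2 changes were -0.76 and -0.65 with chromosomes centred. Ifi35 lies on chromosome 11 and Dtx3l on chromosome 16, both with low medians in clone 1. The MHC class I list had 0 higher without clone 1 replicate 1. The interferon list had 1 higher without clone 1 replicate 1.

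NF-kB subunits, inhibitors and targets had 1 higher and 11 lower of 18 tested (median -0.38). The A20-binding protein Tnip1 was at 12.3 and 10.4 CPM in clone 1, against 29.3 and 27.7 CPM in control, the deubiquitinase Tnfaip3 (A20) at 139 and 121 CPM in clone 1, against 189.6 and 191 CPM in control, and Tnfaip2 and Birc3 fell by 0.45 and 0.74. Chemokines and cytokines had 0 higher and 11 lower of 23 tested. Csf3 (G-CSF), which 4T1 tumours are known to secrete, was at 14.3 and 16.8 CPM in clone 1, against 40.3 and 30.2 CPM in control (log2 change -1.18 ± 0.12 (SE), adjusted p = 5.5e-09). Cxcl1, a neutrophil attractant, was at 32.4 and 30.7 CPM in clone 1, against 45.8 and 45.0 CPM in control (log2 change -0.52 ± 0.07), Cxcl16 had a log2 change of -0.80 (-0.42 with chromosomes centred), and the inflammasome cytokine Il18 was at 0.210 and 0.321 CPM in clone 1, against 2.73 and 1.75 CPM in control. Only 6 of 21 complement and acute phase genes had enough counts to be tested, of which 4 were lower and 0 higher. Cp (ceruloplasmin) was at 2.45 and 2.09 CPM in clone 1, against 33.2 and 34.7 CPM in control (log2 change -3.89 ± 0.14 (SE), adjusted p = 3.3e-18), and the central complement gene C3 was at 0.559 and 0.723 CPM in clone 1, against 7.13 and 6.41 CPM in control (log2 change -3.40 ± 0.26). Checkpoint and NK ligand genes went both ways (3 higher, 3 lower of 10 tested). Ulbp1, a ligand of NKG2D, was at 231 and 209.9 CPM in clone 1, against 109 and 114 CPM in control (log2 change 0.98 ± 0.06), whereas Lgals9 (galectin 9) was at 1.68 and 1.04 CPM in clone 1, against 4.75 and 6.14 CPM in control and Cd274 (PD-L1) at 0.349 and 0 CPM in clone 1, against 1.61 and 1.89 CPM in control. Csf1r, a macrophage receptor, had 0 counts in clone 1 and 20 in control, and Cd68 had 66 and 110 counts (log2 change -0.61, adjusted p = 0.128). The part of such cells in the fall of the immune lists was not tested. The NF-kB list had 0 higher without clone 1 replicate 2 and 0 higher without control replicate 1. The complement list had 2 lower without clone 1 replicate 2.

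Id and BMP-SMAD genes were mostly higher in clone 1, while TGF-beta, Notch and Wnt genes moved both ways. Of all genes tested, 19.7% were higher and 19.9% lower. The Id and BMP-SMAD list had 9 higher and 1 lower of 14 tested (median 0.44). Id1 was at 42.0 and 47.2 CPM in clone 1, against 16.1 and 17.5 CPM in control (log2 change 1.40 ± 0.11 (SE), adjusted p = 2.4e-10), Id2 at 51.0 and 48.4 CPM in clone 1, against 15.3 and 11.9 CPM in control, and Id3 rose by 0.63; Id proteins hold bHLH factors off DNA. Bmp1, a procollagen C-proteinase despite its name, rose by 0.42 (0.23 with chromosomes centred). TGF-beta ligands, latent binders and receptors had 8 higher and 5 lower of 19 tested (median 0.11). In 3D they had 7 higher and 7 lower, where 22.0% of all genes were called higher and 23.0% lower. The latent TGF-beta binders stood out by value, with Ltbp4 at 61.7 and 65.7 CPM in clone 1, against 24.3 and 24.8 CPM in control, Ltbp2 at 176 and 200.1 CPM in clone 1, against 82.1 and 79.0 CPM in control and Ltbp1 at 419 and 449 CPM in clone 1, against 254 and 265 CPM in control (log2 changes 1.37 ± 0.08, 1.22 ± 0.06 and 0.74 ± 0.05), and the receptor Tgfbr2 rose by 0.49. In the Notch pathway (5 higher and 2 lower of 12 tested) the ligands diverged. Jag2 was at 53.2 and 58.7 CPM in clone 1, against 24.0 and 24.3 CPM in control (log2 change 1.21 ± 0.10) and Jag1 at 32.1 and 32.5 CPM in clone 1, against 57.5 and 67.7 CPM in control (log2 change -0.96 ± 0.08), and the receptor Notch1 rose by 0.52. In the Wnt pathway (7 higher and 3 lower of 20 tested) the antagonist Sfrp1 was at 7.69 and 8.999 CPM in clone 1, against 25.3 and 29.4 CPM in control and the receptor Fzd7 fell by 0.82, while the ligand Wnt9a was at 5.31 and 6.51 CPM in clone 1, against 0.629 and 1.28 CPM in control. The Id list had 2 lower without clone 1 replicate 2 and 2 lower without control replicate 1. The TGF-beta list had 3 lower without clone 1 replicate 1, 3 lower without clone 1 replicate 2 and 3 lower without control replicate 1. The Notch list had 3 higher without control replicate 2. The Wnt list had 4 higher without clone 1 replicate 1, 5 lower without clone 1 replicate 1, 7 lower without clone 1 replicate 2 and 6 lower without control replicate 1.

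Glycolytic and hypoxia-inducible genes were more often higher than lower, with 20 higher and 2 lower of 32 tested and a median of 0.31. Pdk1, which holds pyruvate dehydrogenase off, was at 135 and 126 CPM in clone 1, against 49.5 and 53.9 CPM in control (log2 change 1.33 ± 0.07 (SE), adjusted p = 4.7e-14), and Aldoa and Pgk1, both glycolytic enzymes, rose by 0.71 and 0.56. Against the same control libraries, clone 2 had 18 of the 32 higher and 3 lower, where 18.8% of all genes were higher and 14.9% lower. Aldoc, the aldolase of brain, went against its list, at 1.33 and 2.17 CPM in clone 1, against 10.1 and 8.30 CPM in control. Fatty acid synthesis genes had 2 higher and 8 lower of 14 tested, with Fasn, the fatty acid synthase, at 931 and 926 CPM in clone 1, against 1354 and 1433 CPM in control and its regulator Srebf1 lower by a log2 change of -0.60. With chromosomes centred, the log2 change of Fasn was -0.20, against -0.59 before, and that of Srebf1 -0.21. Both lie on chromosome 11, as does Acly, whose log2 change of -0.37 was lost with chromosomes centred, at 0.01 (adjusted p = 0.934; 1.8e-15 to 0.934 across alternatives). Cholesterol synthesis genes had 10 higher and 7 lower of 24 tested, with Sqle and Cyp51, both enzymes of that path, higher by 0.38 and 0.44 (Cyp51 0.25 with chromosomes centred). Zinc transporters and metallothioneins had 5 higher and 5 lower of 20 tested. Next to Slc39a4, the exporter Slc30a4 was at 233 and 219 CPM in clone 1, against 172 and 169.8 CPM in control and the metallothionein Mt1 at 43.5 and 42.1 CPM in clone 1, against 72.7 and 75.9 CPM in control. Txnip, the arrestin-like inhibitor of thioredoxin and of glucose uptake, was at 14.7 and 19.4 CPM in clone 1, against 4.89 and 4.72 CPM in control (log2 change 1.81 ± 0.16 (SE), adjusted p = 9.2e-10), and its relative Arrdc3 at 24.5 and 23.1 CPM in clone 1, against 10.5 and 8.30 CPM in control; a gene on the opposite strand covers 19.4% of the Txnip exons. The fatty acid list had 1 higher without clone 1 replicate 1, 1 higher without control replicate 2 and 5 lower without clone 1 replicate 2. The cholesterol list had 4 lower without clone 1 replicate 1. The zinc list had 3 higher without clone 1 replicate 1.

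Cell cycle lists differed in their medians, with 0.15 for mitosis and 0.0039 for DNA replication. The median was 0.39 for Cdk inhibitors and D cyclins and 0.36 for clustered histones. Mitosis genes had 12 higher and 4 lower of 22 tested (median 0.15), with the proliferation marker Mki67 at 1194 and 1252 CPM in clone 1, against 798 and 876 CPM in control (log2 change 0.55 ± 0.06) and the spindle factor Tpx2 higher by 0.35. DNA replication genes were divided, with 9 higher and 10 lower of 28 tested. Pola1, the catalytic subunit of primase-polymerase alpha, was at 388 and 367 CPM in clone 1, against 178 and 189 CPM in control (log2 change 1.04 ± 0.06), while Tk1, the thymidine kinase, was at 186 and 183 CPM in clone 1, against 289 and 273 CPM in control (log2 change -0.61, and -0.23 with chromosomes centred, on chromosome 11). Cdk inhibitors, D cyclins and their kinases had 6 higher and 0 lower of 9 tested, with Cdkn2c, Cdkn2d and Cdk6 higher by 0.49, 0.94 and 0.44 (Cdk6 0.24 with chromosomes centred). The log2 change of Ccnd3, 0.39, was lost with chromosomes centred, at 0.17 (adjusted p = 0.21; 3.5e-04 to 0.21 across alternatives). Clustered histone genes had 44 higher and 0 lower of 62 tested (median 0.36); their near-identical copies could share reads, so single members are not given. They took 1.46 and 1.39% of the counts of the clone 1 libraries, against 1.17 and 1.13% in control. The libraries were made from polyadenylated RNA, so histone transcripts without a poly(A) tail were not properly measured. The mitosis list had 2 lower without clone 1 replicate 2.

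**Figure D3:**
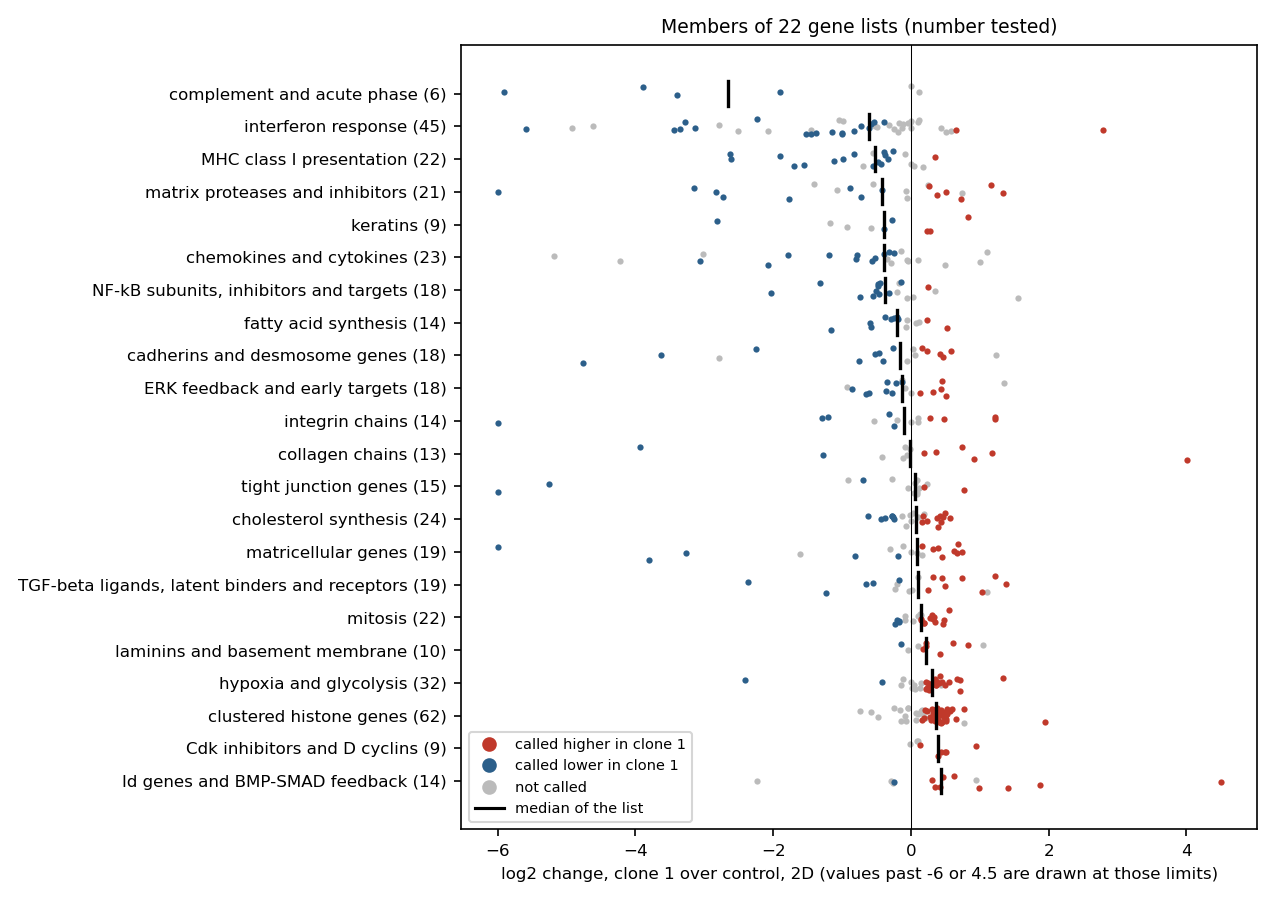
Each point is a gene of 1 of 22 lists, placed by its log2 change of clone 1 over control in 2D (values past -6 or 4.5 are drawn at those limits), with lists ordered by their median (black bar) and called genes in colour. Complement (-2.65, or -1.78 with genes of 0 counts at their bound), interferon (-0.61) and MHC class I (-0.52) lie at the top. Matrix proteases (-0.42) and keratins (-0.40) come next, above chemokines (-0.39) and NF-kB (-0.38). The Id and BMP-SMAD list lies at the bottom with a median of 0.44.

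The genes of single chromosomes shifted together in clone 1. On chromosome 11, where Etv4 lies, the median log2 change of 1124 genes was -0.38, with 594 genes lower and 30 higher, and on chromosome 16 the median of 412 genes was -0.35, with 219 lower and 14 higher. The low level ran along all of chromosome 11, from -0.28 to -0.51 in its 20-Mb windows of at least 20 genes of 5 CPM or more, and the 4 such windows of chromosome 16 had -0.35 to -0.42. Chromosome 17 had the highest median of the nuclear chromosomes, 0.23, with 286 of 688 genes higher and 33 lower, followed by chromosomes 5, 14 and 12 with 0.20, 0.19 and 0.18. Psmb8 and H2-Q6, both lower in clone 1, lie on chromosome 17. Medians of clone 1 over control in 3D were -0.43 on chromosome 11 and -0.32 on chromosome 16, and those of clone 2 over control in 2D were -0.09 and -0.11, against the same 2D control. Clone 1 over clone 2 gave -0.26 on chromosome 11 and -0.25 on chromosome 16. DNA was not measured, and what share of the change of any gene there goes with its chromosome was not tested. Centring cannot decide it, because it subtracts each chromosome's median change in these same libraries. A gene near that median then loses its change by construction. With each chromosome centred, 2158 genes were higher and 2080 lower. Etv4 then stood at -0.26 (adjusted p = 0.00548; 1.4e-15 to 0.00548 across alternatives), and Etv5 at -0.36 (adjusted p = 0.00167; 4.1e-13 to 0.00167 across alternatives). Of the most abundant transcripts called, Lgals1 kept its call with chromosomes centred (log2 change 0.63, adjusted p = 5.9e-11), while 5 others lost it. Npm1 (nucleophosmin, chromosome 11) had a log2 change of -0.42 before and -0.04 (adjusted p = 0.632; 1.1e-17 to 0.632 across alternatives) after centring. Rack1, a ribosomal scaffold on chromosome 11, had -0.38 and then 0.0044 (adjusted p = 0.997; 3.0e-14 to 0.997 across alternatives). For Eef1a1, the elongation factor, the values were -0.16 and -0.02 (adjusted p = 0.739; 8.5e-04 to 0.739 across alternatives), and the call was also lost without clone 1 replicate 2 (adjusted p = 0.0529) and without control replicate 1 (0.0927). Hsp90ab1, a chaperone on chromosome 17, had 0.23 and then 0.01 (adjusted p = 0.969; 1.2e-09 to 0.969 across alternatives). Actb (beta-actin, chromosome 5) had 0.29 and then 0.09 (adjusted p = 0.108; 1.4e-10 to 0.108 across alternatives).

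**Figure D4:**
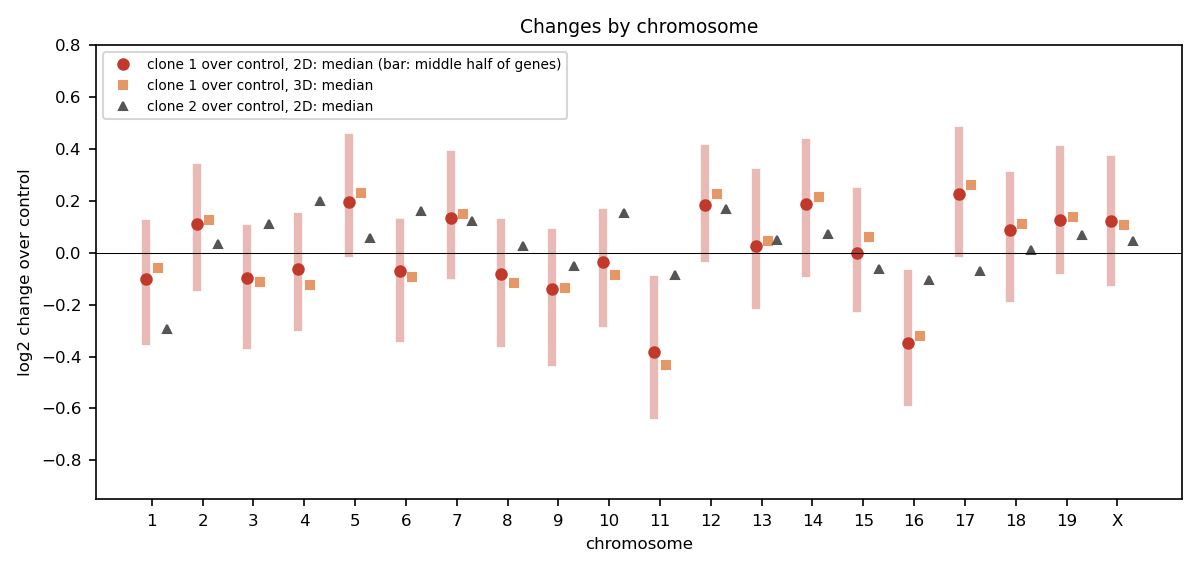
For each chromosome the median log2 change over control is plotted for clone 1 in 2D (red, with a bar between the quartiles of its genes), clone 1 in 3D (orange) and clone 2 in 2D (grey). Chromosomes 11 and 16 lie lowest in clone 1 in both formats, at -0.38 and -0.35 in 2D.

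Many changes of clone 1 in 2D were also present in collagen gels, in 4 other libraries of the same clone and pools. Of 2706 genes higher in 2D, 1828 (67.6%) were called higher in 3D and 63 lower, where 22.0% of all genes were called higher in 3D. Of 2742 genes lower in 2D, 1935 (70.6%) were lower in 3D and 65 higher, where 23.0% of all genes were called lower and 45.0% either way. Over 9494 genes of at least 5 CPM, Pearson's r of both log2 changes was 0.814 (0.573 over all 13763), a description across genes, which share libraries and chromosomes. The gel, its digestion with collagenase, the separate count table and a greater depth go together in 3D, and their effects cannot be told apart. The clone 1 and control libraries held 27.1 to 33.2 M counts in 3D, against 12.3 to 14.4 M in 2D. Shares and list counts called in the formats are therefore at unlike depth. Among the lists, 16 of 22 MHC class I genes and 30 of 45 interferon genes were lower in 3D.

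Other genes answered differently in the 2 formats. The interaction, the change of clone 1 in 3D minus that in 2D, was called in 967 genes (7.03% of those tested; 3.57% higher and 3.46% lower, 491 and 476 genes). The even split depended on the scaling, with 703 higher and 377 lower without Gm26917 and Gm42418, 606 and 400 with DESeq2's size factors, and 540 and 361 with DESeq2. The count of 967 fell to 533 without clone 1 replicate 1 in 3D, 546 without its replicate 2, 533 without control replicate 1 in 3D and 482 without its replicate 2. Mmp3, lower in clone 1 in 2D, was higher in 3D, at 185 and 199 CPM in clone 1, against 58.7 and 63.0 CPM in control (log2 change 1.66 ± 0.07, interaction 3.42 ± 0.13 (SE), adjusted p = 1.6e-16). Cxcl1 turned the same way, at 213 and 228 CPM in clone 1, against 98.2 and 102 CPM in control in 3D (interaction 1.66 ± 0.09). Txnip turned the other way, at 25.3 and 23.9 CPM in clone 1, against 47.3 and 50.9 CPM in control in 3D (interaction -2.81 ± 0.18 (SE), adjusted p = 1.7e-11). Pdk1 was not called in 3D, at 68.2 and 68.5 CPM in clone 1, against 67.9 and 72.8 CPM in control (log2 change -0.04 ± 0.07, adjusted p = 0.648). The hypoxia and glycolysis list had 4 higher and 14 lower in 3D, where 22.0% of all genes were called higher and 23.0% lower. C3, nearly gone from clone 1 in 2D, was at 46.7 and 42.8 CPM in clone 1, against 70.1 and 64.9 CPM in control in 3D. Calcoco1, a coiled-coil coactivator, was higher in clone 1 in 2D, at 7.69 and 6.19 CPM in clone 1, against 3.98 and 3.24 CPM in control, with an interaction of -1.73 ± 0.23.

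**Figure D5:**
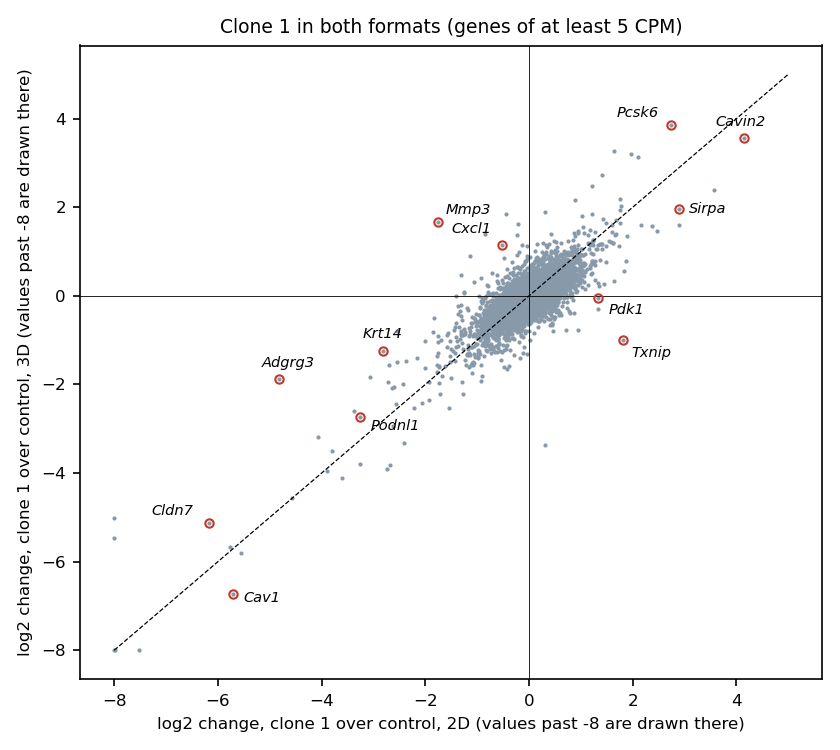
The log2 change of clone 1 over control in 3D is plotted against that in 2D for the 9494 genes of at least 5 CPM (values past -8 are drawn there), with the dashed line marking equal change. Cav1 and Cavin2 lie far from zero on the same side in both formats, while Mmp3 and Txnip lie in the quadrants of opposite sign.

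Clone 1 differed from clone 2 about as widely as from the control. In 2D, 2532 genes were higher in clone 1 than in clone 2 (18.4%) and 3193 lower (23.2%), together 41.6%. The excess of lower genes depended on the scaling and filter, with 2830 higher and 2895 lower without Gm26917 and Gm42418, 2589 and 2750 with DESeq2, 2756 and 2973 with its size factors, and 2865 and 2922 without a filter. Among genes changed the same way against the control, those that stood highest over clone 2 were Cavin2, Col5a1, Pcsk6, Sparc and Amigo2, with clone 1 over clone 2 at 7.13, 3.81, 3.41 and 3.07 on the log2 scale for the first 4. Amigo2, an adhesion molecule, was at 11.9 and 13.3 CPM in clone 1, against 8.95 and 8.97 CPM in control, with 2.12 and 1.71 CPM in clone 2; its call against control (adjusted p = 0.0218) was lost in a fit of the 2D libraries (adjusted p = 0.0752), in a fit of the 4 libraries (0.0597), and without control replicate 1 (0.0609), control replicate 2 (0.0582) or clone 1 replicate 2 (0.119), with 0.0192 to 0.119 across alternatives. Among those of at least 5 CPM, the same limit as for the higher genes, the lowest below clone 2 were Fam111a, Bspry, Rasef, Tmem266 and Zfp518b. By list, cholesterol synthesis had 15 genes higher in clone 1 than in clone 2 and 1 lower of 24 tested. NF-kB genes had 9 lower in clone 1 and 1 higher of 18, and interferon genes 20 lower and 4 higher of 45. Against the same control libraries, clone 2 itself had 10 interferon genes lower and 5 higher and 4 NF-kB genes lower and 2 higher, where 14.9% of all genes were lower and 18.8% higher, together 33.7%. MHC class I genes were lower in clone 2 too, in 11 of 22 with 2 higher, and 8 were lower and 1 higher in clone 1 than in clone 2.

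Some named genes share exon sequence with a neighbour, and the strand setting of the counting is not given in the sources used here. A gene on the opposite strand covers 18.3% of the exon length of Cxcl16, 16.8% of Ifi35, 14.7% of Psmb8, 14.4% of Fam111a and 14.1% of Cd274, and one on the same strand covers 12.4% of Serpinb2. For Notch1, Ltbp2, Dtx3l, Gabpa, Elk3, Tnfaip2, Itgav, Npr2 and Krt8 the share was 5.16 to 9.76%. Those values are uncertain in part.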

How the data were processed

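Polyadenylated RNA of 4T1 cells was sequenced from TruSeq Stranded mRNA libraries, per the labels' protocols. The authors deposited whole-number counts of reads for each gene symbol, not normalized. Build mm10 is named in the submitters' processing notes, as are STAR 2.7.9a and featureCounts, without their settings.

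Both count tables were joined by symbol, giving 12 libraries in 6 groups of 2. After filterByExpr had set the low genes aside and TMM factors had scaled the libraries, edgeR 4.0.16 (R 4.3.3) fitted a quasi-likelihood model with a mean per group (6 residual degrees of freedom, biological coefficient of variation 4.51%). Every adjusted p is from its two-sided test, adjusted by Benjamini and Hochberg's method across all 13763 genes. CPM are scaled by TMM, except sums over cell markers, which are per M of all counts. Replicate pairs differed beyond sampling noise. DESeq2 1.42.0, other filters, scalings and library sets were alternatives, and the script was tested on simulated data. Positions come from GENCODE M21 (99.07% of genes placed).

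The members and the 51 gene lists were chosen with earlier results of these data known. Named genes are the 12 higher and 12 lower with the largest change (adjusted p under 0.05, at least 5 CPM, no overlap of libraries, official symbol), up to 4 called members of a list by smallest p, genes with at most 3 counts in one group and at least 100 in the other, the most abundant called genes, and those differing most from clone 2 or between formats. Epithelial and other cell markers, Cdh1 among them, were fixed as lists. Lists were described by counts and medians, with no set test. Some genes that this rule names are not reported here.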

Additional observations from a re-analysis of the deposited data

Results flagged for a closer look

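The change of clone 1 against control differed between 3D and 2D, by the test of the interaction (adjusted p under 0.05), in 52 of the 138 genes named. Over all genes tested it was called in 967 of 13763 (7.03%). The named genes were picked for large changes, small p or large interactions, so their share is raised by that choice. Values are log2 changes in 3D minus those in 2D, and the causes were not tested.

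Among secreted proteases, matrix and adhesion genes the interaction was Mmp3 3.42, Col18a1 -0.26, Col4a5 -0.93, Lamb2 -0.58 and Sparc -0.43. Among genes of caveolae it was Cavin2 -0.60, Cavin1 -0.32 and Pacsin3 -0.50. For epithelial and mesenchymal genes it was Cldn7 1.03, Marveld1 -0.49, Krt14 1.58, Krt19 -0.44, Cdh1 -0.40, Axl -0.26, Vim -0.33 and S100a4 0.42; Cdh1 was lower in clone 1 in 3D. Of the inflammatory and interferon genes named, these were less low in 3D or turned: Cxcl1 1.66, C3 2.81, Csf3 0.87, Cxcl16 0.46, Tnfaip2 0.67, Tnfaip3 0.44 and Ifitm3 0.69, whereas H2-Q6 fell further (-0.97, and Sirpa -0.93, with a smaller rise in 3D). The interaction of Ulbp1 was -0.54.

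Glycolysis and thioredoxin genes were less high in 3D or turned, with Pdk1 -1.38, Aldoa -0.66, Pgk1 -0.60, Txnip -2.81 and Arrdc3 -1.13. For signalling genes the values were Id2 -1.08, Id3 -0.33, Ltbp2 -0.44, Wnt9a -2.26, Areg 0.48, Etv1 -0.50, Ets1 0.40 and Npr2 -1.31. Genes that rose further in 3D were Pcsk6 1.12, Klk10 1.04 and Anxa8 1.23, and those that rose less were Cobl -0.80 and Sorcs2 -0.54. Amigo2 and Calcoco1, higher in 2D, had Amigo2 -1.01 and Calcoco1 -1.73. Tk1 and Adgrg3 were less low in 3D, with Tk1 0.46 and Adgrg3 2.93, and Rack1 fell further, with -0.23. Bspry, Tmem266 and Cd74 had 0 or 1 counts in clone 1 in 2D, so their interactions of Bspry 6.29, Tmem266 3.44 and Cd74 6.91 depend on the prior count of the fit and are no measure of size.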

How the results depend on the processing

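For clone 1 against control in 2D, other settings gave 5080 calls (2620 higher, 2460 lower) with DESeq2, 5467 with its size factors, 5523 without a filter, 5475 without Gm26917 and Gm42418, 4255 from the 2D libraries, 4062 from the 4 libraries and 4238 with chromosomes centred, all within 1.5 times of 5448. Genes without overlap, 8183 tested, gave 3420 calls (1772 higher, 1648 lower) against control, 3604 (1586 and 2018) against clone 2, 3951 (1891 and 2060) in 3D and 302 higher interactions; fewer genes enter that fit. Leaving out a library gave 4662 to 4989 calls (2250 to 2457 higher, 2296 to 2558 lower) against control, 4862 to 5168 (2218 to 2296, 2598 to 2872) against clone 2, 4538 to 4728 (2034 to 2615, 2113 to 2561) in 3D, and 482 to 1268 interactions (227 to 650, 198 to 618).

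Replicate numbers were not taken to pair the libraries: deviations of same-numbered libraries correlated at -0.026 for clone 1 and control in 2D and at -0.088 to 0.165 over the 6 pairs of groups within a format, the highest for clone 2 and control in 3D, and the fit with the replicate block gave 5368 calls. Of 1754 values of the 138 genes named, 1738 kept direction and call, 13 lost the call and 3 changed sign, Gabpa (0.000179), Acly (0.0097) and Rack1 (0.0044), each with chromosomes centred; the cause was not tested. Of 1196 list counts under alternatives, 148 moved by over 1.5 times, 46 of them on leaving out a library; these 46 values, where a list is described, are given beside the lists described. No scaling moved the median of all genes by 0.1. In 2D this says little about scaling, because genes with no counts in the libraries compared stay at a log2 change of 0. With DESeq2's size factors, 2813 genes were higher and 2654 lower against control, where the main fit gave 2706 and 2742. At 12.3 to 14.4 M counts, genes of a few counts have wide intervals.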

Other observations

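Actin genes and targets of SRF, the factor that reads the actin state, had 12 higher and 3 lower of 21 tested in clone 1 in 2D, with a median log2 change of 0.22. Targets of YAP, the Hippo pathway coactivator, had 8 higher and 2 lower of 18 tested (median 0.20), and cytosolic heat shock genes had 5 higher and 1 lower of 12 tested (median 0.14). Over all genes 19.7% were higher and 19.9% lower in 2D, and the median was 0. In 3D, at greater depth, 22.0% of all genes were called higher and 23.0% lower. Genes of ER stress and the ATF4 response had 2 higher and 8 lower of 26 tested in 2D and 18 higher and 4 lower in 3D. Cytosolic ribosomal proteins, whose processed copies could share reads, had 26 higher and 17 lower of 80 tested in 2D and 11 higher and 39 lower in 3D. Nuclear genes of oxidative phosphorylation had 13 higher and 13 lower of 74 tested in 2D. No difference between formats was tested for a list. The YAP list had 1 lower without clone 1 replicate 2 and 1 lower without control replicate 2. The heat shock list had 2 lower without clone 1 replicate 1 and 2 lower without control replicate 1. The ER stress list had 0 higher without clone 1 replicate 1 and 1 higher without control replicate 2. The ribosomal list had 16 higher without clone 1 replicate 1 and 11 lower without clone 1 replicate 2. The oxidative phosphorylation list had 7 higher without clone 1 replicate 1, 7 higher without control replicate 2, 8 lower without clone 1 replicate 2 and 8 lower without control replicate 1.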
